A study of Mus musculus with 6 samples.

Results

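The expression of 9 genes that mark neural progenitors and neurons, Sox1, Sox3, Pax6, Pou3f2, Fabp7, Ncam1, Map2, Dcx and Zic1, was followed in bulk RNA-seq of mouse embryonic stem cells (mESCs) and of cardiac precursor cell cultures (CPCCs). The genes were taken by symbol from the 16279 genes listed for either cell type, and all 9 were found. The mESCs were male F1 cells of a C57BL/6J mother (C57BL/6 in the labels) and a CAST/EiJ father, isolated from 3 blastocysts and kept in medium with LIF and the 2i inhibitors. The CPCCs were grown from those 3 mESC clones through hanging drops and embryoid bodies with ascorbic acid, then dissociated and passaged in differentiation medium with EGF and Fgf2. Each cell type has 3 libraries, S01 to S03 for mESCs and S04 to S06 for CPCCs. The CPCCs are mixed cultures and not sorted cells, so a gene's level in a library is an average over cell types, and more cells of a type cannot be told apart from more RNA per cell. The libraries could not be matched to clones, and the p-values therefore measure the spread between libraries only.

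In the embryo, the neural plate forms from ectoderm, and its cells are recognised by transcription factors of the SOXB1 group, SOX1 and SOX3 among them, and by PAX6. Radial glia, the dividing progenitors of the later neural tube, carry the fatty acid binding protein FABP7. Newborn neurons then make doublecortin (DCX), MAP2 and large amounts of the adhesion molecule NCAM1. In culture, mESCs released from LIF can take this path as well as the mesodermal path that leads to heart cells, and EGF with Fgf2 is the usual supplement for growing neural progenitors.

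On mm10, the build named in the submitters' notes, the intronless genes Sox1 (chr8:12395519-12399556, plus strand), Sox3 (chrX:60891366-60893431, minus strand) and Pou3f2 (chr4:22482095-22488367, minus strand) each consist of 1 exon. Pax6 (chr2:105668896-105698411, plus strand) has 16 separate exon stretches in GENCODE vM21, Fabp7 (chr10:57784923-57788451, plus strand) has 4 and Dcx (chrX:143855842-143933220, minus strand) has 7. Ncam1 (chr9:49502129-49799394, minus strand) has 26, Map2 (chr1:66175329-66442584, plus strand) has 24 and Zic1 (chr9:91360345-91365800, minus strand) has 4. Positions are those of the deposited tables. Exons of Zic1 and of Zic4 on the opposite strand overlap over 60 bases, and strand use in counting is not given in the sources used here, so the low counts of Zic1 and Zic4 are uncertain. No other gene whose exons overlap those of the 9 genes is listed for either cell type.

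The promoters of these genes were of unlike base composition, and the following 4 are shown as examples with many and with few CG dinucleotides, from genes that had the same order of levels among the CPCC libraries, as Pax6 and Map2 also did. RefSeq (GRCm38.p6) gave the bases before the start for 7 of the 9 genes. The 250 bases before the first start are written 5′ to 3′ on the gene's own strand, with CG dinucleotides in capitals. They lie at chr8:12395269-12395518 for Sox1 (plus strand), chr4:22488367-22488616 for Pou3f2 (minus strand), chr10:57784673-57784922 for Fabp7 (plus strand) and chrX:143933220-143933469 for Dcx (minus strand).
Sox1: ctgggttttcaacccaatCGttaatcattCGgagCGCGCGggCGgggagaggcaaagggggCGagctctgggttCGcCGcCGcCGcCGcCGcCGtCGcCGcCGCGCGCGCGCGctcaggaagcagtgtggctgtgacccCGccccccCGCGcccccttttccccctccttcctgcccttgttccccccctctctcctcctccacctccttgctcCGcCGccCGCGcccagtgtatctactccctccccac
Pou3f2: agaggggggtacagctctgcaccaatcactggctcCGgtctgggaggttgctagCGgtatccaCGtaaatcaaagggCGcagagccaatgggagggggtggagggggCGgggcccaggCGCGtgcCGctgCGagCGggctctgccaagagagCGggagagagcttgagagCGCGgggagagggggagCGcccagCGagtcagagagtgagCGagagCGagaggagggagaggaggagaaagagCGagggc
Fabp7: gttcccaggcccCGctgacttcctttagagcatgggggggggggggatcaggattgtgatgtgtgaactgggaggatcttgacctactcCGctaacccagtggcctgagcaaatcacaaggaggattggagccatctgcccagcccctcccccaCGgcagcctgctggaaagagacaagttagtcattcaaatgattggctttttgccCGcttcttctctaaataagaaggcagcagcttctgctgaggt
Dcx: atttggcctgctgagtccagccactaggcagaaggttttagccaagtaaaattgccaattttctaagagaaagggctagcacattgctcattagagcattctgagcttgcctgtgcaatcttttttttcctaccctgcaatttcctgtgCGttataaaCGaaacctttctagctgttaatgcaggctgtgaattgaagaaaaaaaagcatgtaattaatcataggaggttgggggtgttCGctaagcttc
The Sox1 window held 29 CG dinucleotides and that of Pou3f2 held 18, against 4 for Fabp7 and 3 for Dcx. Over 32851 promoter windows of 27025 genes, the quartiles were 2, 6 and 16. Among the other members, Map2 held 34, Zic1 held 27 and each of the starts of Pax6 held 15. The letters TATAAA were searched on both strands and were found, among the 7 genes, in the windows of Dcx, beside 12.37% of all windows. The letters CCAAT, also searched on both strands, were present before the first start of Sox1, Pax6, Pou3f2, Fabp7, Dcx and Zic1, but not before that of Map2 or the second starts of Pax6 and Dcx, beside 33.85% of all windows. These are matches of letters and not measured binding sites.

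The mESC libraries held 6442639 to 6907330 estimated counts and the CPCC libraries 8468819 to 11436062, with S04 the deepest. Levels are given as CPM, counts per 1000000 counts of the library size scaled by the TMM method over genes listed for both cell types. A gene is listed for a cell type when its 3 libraries hold at least 10 counts together. Where a gene is missing from the mESC table, its fold change is a lower bound against 3 counts per library, which is 0.448 CPM on average. The bound rests on the listing cutoff and takes up neither counting error nor the spread between libraries. Of 8 pluripotency markers all 8 fell in CPCCs, from sums of 4551 to 4954 CPM to sums of 136 to 276 CPM. All 4 tested mesenchymal markers rose, and the whole list of 10 summed to 11812 to 18073 CPM in CPCCs against 10.8 to 18.6 CPM in mESCs. Of 13 cardiac markers only Tnnt2, cardiac troponin T, passed the test among the 5 that could be tested, 7 were listed for CPCCs only, and the list summed to 54.6 to 180 CPM in CPCCs against 12.7 to 19.6 CPM in mESCs. Nkx2-5, an early cardiac regulator, had 16, 0 and 8 counts in S04, S05 and S06.

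The neural plate factor Sox1 was higher in CPCCs, but unevenly. The mESC libraries held 3, 8 and 25 Sox1 counts (0.463, 1.18 and 3.66 CPM), and the CPCC libraries 38, 193 and 444 counts (3.78, 23.4 and 50.9 CPM in S04, S05 and S06). The highest mESC library, S03, came close to the lowest CPCC library, S04, without overlap. The mESC mean was 1.77 ± 1.68 CPM and the CPCC mean 26.0 ± 23.7 CPM (SD, n = 3 each), a log2 fold change of 3.86 (SE 0.95, edgeR quasi-likelihood test, Benjamini-Hochberg adjusted p = 0.00651). The log2 fold change was 2.92 without S06 and 4.95 without S03, with an adjusted p of at most 0.0309 when any library was left out.

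Sox3, its X-linked relative, was not listed for mESCs. S04, S05 and S06 held 9, 21 and 39 Sox3 counts (0.895, 2.55 and 4.47 CPM). At a mean of 2.64 ± 1.79 CPM it was at least 5.89-fold higher in CPCCs. Without S06 this bound fell to 3.84-fold.

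Pax6, a regulator of forebrain, spinal cord and eye progenitors, was likewise listed for CPCCs only. It had 46.5, 117 and 159 counts in S04, S05 and S06, or 4.62, 14.2 and 18.2 CPM. All 3 levels lay above the level of 3 counts, with S04 lowest, and the mean of 12.3 ± 6.97 CPM was at least 27.6-fold above that of mESCs.

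Zic1, a zinc finger factor of the dorsal neural tube, was among the least abundant of the 9. It had 15, 25 and 23 counts in S04, S05 and S06 (1.49, 3.03 and 2.64 CPM) and was not listed for mESCs. The mean of 2.39 ± 0.800 CPM put it at least 5.33-fold higher in CPCCs.

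Pou3f2, also called Brn2, a factor of neural progenitors and of migrating neurons, was low in mESCs. In mESCs 12 counts fell in S01 and 0 in S02 and S03, while the CPCC libraries had 48, 143 and 279 counts (4.77, 17.3 and 32.0 CPM). Again S04 was lowest and S06 highest, and no CPCC library overlapped the mESCs. The log2 fold change was 4.86 (SE 1.10, edgeR, adjusted p = 0.00433), from 0.618 ± 1.07 CPM to 18.0 ± 13.6 CPM. Without S01 both remaining mESC libraries were at 0, and Pou3f2 was then at least 41.0-fold higher in CPCCs. Without S06 the log2 fold change was 4.15.

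Fabp7, the radial glial fatty acid binding protein, had the highest level in S05 and S06 after Ncam1 on the CPM scale. It had 147, 941 and 1063 counts in S04, S05 and S06, or 14.6, 114 and 122 CPM, and was not listed for mESCs. S05 and S06 lay together, well above S04. The mean of 83.5 ± 59.8 CPM was at least 186-fold above that of mESCs, and the bound was 144-fold without S06 and 263-fold without S04.

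Ncam1, the neural cell adhesion molecule, behaved unlike the other 8 in being steady within each cell type. In mESCs there were 250, 295 and 281 counts (38.6, 43.4 and 41.1 CPM), while the CPCC libraries had 3192, 2765 and 2639 counts (317, 335 and 302 CPM). The cell types were widely separated and the libraries of each nearly level. The means were 41.0 ± 2.40 CPM and 318 ± 16.5 CPM, a log2 fold change of 2.95 (SE 0.16, edgeR, adjusted p = 2.29e-06). NCAM1 is also made by heart and muscle cells and many other embryonic cells, so alone it does not mark neural cells. It made up 85.8% of the summed level of the 9 genes in S04, 59.9% in S05 and 49.8% in S06.

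Of the neuronal cytoskeleton genes, Map2, whose product binds dendritic microtubules, had 20, 10 and 7 counts in mESCs (3.09, 1.47 and 1.02 CPM). In CPCCs it had 129, 226 and 312 counts (12.8, 27.4 and 35.8 CPM in S04, S05 and S06). Every CPCC library lay above every mESC library, and S04 was again the lowest of the CPCCs. The log2 fold change was 3.76 (SE 0.52, edgeR, adjusted p = 0.000282), with a range of 3.43 to 4.32 when 1 library was left out, lowest without S06 and highest without S01.

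Dcx, the X-linked microtubule protein of migrating young neurons, was listed for CPCCs only. It had 94.0, 186 and 337 counts in S04, S05 and S06, or 9.34, 22.6 and 38.6 CPM. The order of the libraries was that of Map2. The mean of 23.5 ± 14.7 CPM was at least 52.5-fold above that of mESCs, and the bound was 35.6-fold without S06 and 68.3-fold without S04.

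**Figure D1:**
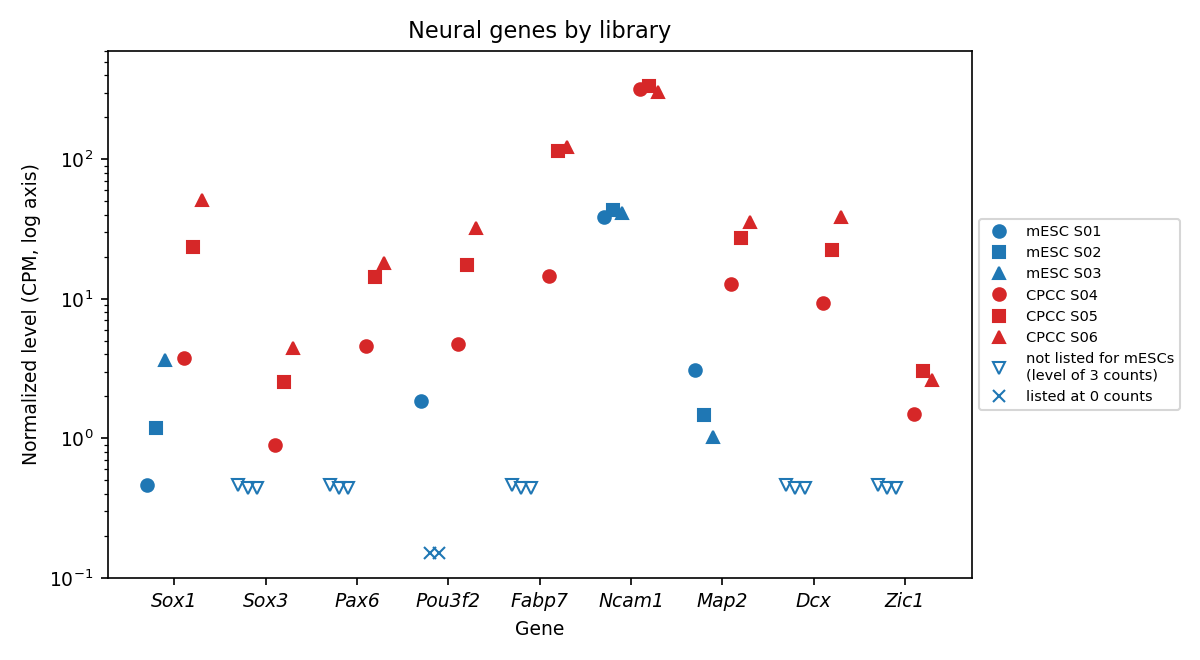
Each point is the level of a gene in 1 library, in CPM on a log axis, with mESC libraries in blue and CPCC libraries in red. Open triangles stand at the level of 3 counts for genes not listed for mESCs, and crosses at the bottom mark libraries of a listed gene at 0 counts. Every CPCC point lies above the mESC points of its gene, where triangles are assumed and not measured levels. Among genes listed for both cell types the gap is narrowest for Sox1, at 3.66 CPM in S03 and 3.78 CPM in S04.

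Taking the genes as a group, all 4 that were listed for both cell types rose in CPCCs and none fell. Of the 12471 genes tested, 31.7% rose and 29.7% fell, or 61.4% in either direction. In all 4, every CPCC library lay above every mESC library, as for 35.3% of the genes tested. The other 5 were listed for CPCCs only, as were 16.2% of the 15519 genes of the CPCC table. When these were tested with 3 counts put into each mESC library, Pax6, Fabp7, Dcx and Zic1 passed the edgeR test, with log2 fold changes of 4.66, 7.42, 5.59 and 2.30, and Sox3 was removed by the filter on low counts. The mESC counts of that fit were set equal and not measured, so it adds nothing to the bounds. The log2 fold changes with a test, of 2.95 to 4.86, compare with a median of 0.031 over all genes tested.

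Per length, the order of the genes changed. Levels in CPM per kilobase of exon in CPCCs were 66.8 ± 47.8 for Fabp7 and 36.7 ± 1.90 for Ncam1, whose ranges over libraries overlapped. Sox1 at 5.39 ± 4.90, Pou3f2 at 3.23 ± 2.44, Dcx at 1.86 ± 1.16 and Map2 at 1.54 ± 0.706 came next, followed by Sox3 at 1.28 ± 0.866, Pax6 at 1.06 ± 0.596 and Zic1 at 0.419 ± 0.141. Neighbours in the order from Sox1 down to Zic1 did not separate beyond their spread. Fabp7 and Ncam1 stood above the other 7 genes in every CPCC library. In mESCs Ncam1 was the highest at 4.74 ± 0.276 CPM per kilobase, with Sox1, Map2 and Pou3f2 at 0.365 ± 0.347, 0.113 ± 0.066 and 0.111 ± 0.192.

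The 3 CPCC libraries differed strongly from each other in these genes. This comparison was made after the values were seen and has no replicates of its own. Relative to S04, S06 was 13.5-fold higher for Sox1, 8.34-fold for Fabp7, 6.70-fold for Pou3f2, 5.0-fold for Sox3, 4.13-fold for Dcx, 3.94-fold for Pax6 and 2.79-fold for Map2. For these 7 genes the order was S04, S05, S06 from lowest to highest, as it was for 23.8% of the 13966 genes with a CPCC mean of at least 1 CPM. A level at least 2-fold higher in S06 than in S04 was found for the same 7 of 9, beside 13.9% of those genes, whose median ratio was 0.998. With library totals in place of TMM, Zic1 joined them at 2.04-fold.

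The exceptions were Zic1 and Ncam1. Zic1 was 1.77-fold higher in S06 than in S04, with an exact 95% interval for counting error of 0.884 to 3.64 that reaches below 1. For Sox3, the other gene with few counts, the interval was 2.38 to 11.7. Ncam1 had a ratio of 0.953, with an interval of 0.905 to 1.00. As coefficients of variation over the CPCC libraries, Sox1 had 90.9%, Pou3f2 75.5% and Fabp7 71.6%, against 5.17% for Ncam1.

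Without Ncam1 the remaining 8 genes summed to 52.3 CPM in S04, 225 CPM in S05 and 304 CPM in S06. The pluripotency markers moved the same way, with sums of 136, 197 and 276 CPM. The cardiac markers had sums of 180, 54.6 and 77.1 CPM and the mesenchymal markers 18073, 17800 and 11812 CPM, so both lists were highest in S04. Sums for skeletal muscle markers were 50.7, 21.9 and 29.6 CPM, for endothelial markers 29.3, 15.6 and 14.8 CPM and for endoderm markers 81.5, 108 and 132 CPM. The neuron markers, at 945, 624 and 601 CPM, were highest in S04, opposite to the sum of those 8 genes. Stmn2 (682, 442 and 406 CPM) and Tubb3 (215, 118 and 133 CPM) made up most of the neuron marker sum. Syn1 was also highest in S04, but Elavl3, Snap25, Rbfox3 and Syt1 were lowest there. Of the wider lists, neuronal structure (3304, 3169 and 2961 CPM) and radial glia and glia (5430, 5352 and 4299 CPM) were highest in S04. Vim made up 3570, 2974 and 2327 CPM of the latter. Lowest in S04 were neural transcription factors (224, 399 and 460 CPM) and proneural genes (78.2, 119 and 162 CPM). So were adhesion and synapse genes (271, 494 and 444 CPM). S04 was also the deepest library. The part of these lists and of depth in the levels of the neural genes was not tested.

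**Figure D2:**
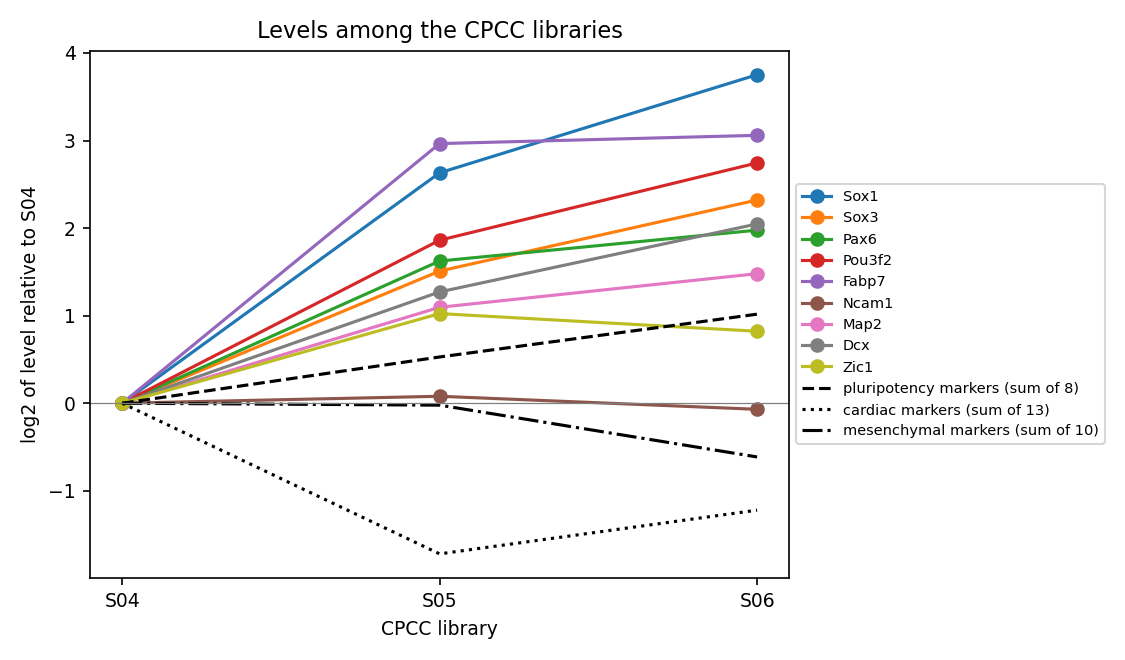
The log2 level relative to S04 is drawn for each of the 9 genes (colours) and for the summed levels of 3 marker lists (black) over the CPCC libraries, whose order on the axis is that of their names. Sox1 ends 13.5-fold above S04 and Ncam1 stays level at 0.953, while the cardiac marker sum lies below S04 in both other libraries.

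The neuron markers did not all follow. The early neuronal tubulin Tubb3 rose from 27.6 ± 2.95 CPM to 156 ± 52.2 CPM (log2 fold change 2.49, SE 0.26, edgeR, adjusted p = 5.16e-05), but its level was 215 CPM in S04 against 118 and 133 CPM in S05 and S06. Of the 7 neuron markers, Syn1, a synaptic vesicle protein, rose by a log2 fold change of 1.48, and the RNA-binding protein gene Elavl3 by 1.61 with overlapping groups, a call lost when S01, S02, S03, S05 or S06 was left out or missing genes were filled with 3 counts. Stmn2, a regulator of growth cone microtubules, lay at 387 to 408 CPM in mESCs, where CPCCs had 406 to 682 CPM, and did not pass (log2 fold change 0.37, adjusted p = 0.151). For the mature neuron marker Rbfox3 the mESC range of 1.32 to 2.21 CPM overlapped the CPCC range of 1.59 to 2.52 CPM (log2 fold change 0.24, adjusted p = 0.730). Syt1 and Snap25, proteins of transmitter release, were listed for CPCCs only, at least 29.3-fold and 9.35-fold higher.

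Relatives of the 9 genes showed that families did not move as one. In the SOXB group, Sox2, which mESCs need for pluripotency as well as neural progenitors for their identity, went from mESC levels of 149, 127 and 202 CPM to CPCC levels of 12.7, 42.6 and 39.2 CPM. It fell, with a log2 fold change of -2.34 (SE 0.41, edgeR, adjusted p = 0.00106), while among the CPCCs it too was lowest in S04. Sox21, which acts against the SOXB1 factors, rose from 3.98 ± 1.19 to 18.6 ± 10.3 CPM (log2 fold change 2.20, adjusted p = 0.00526). Sox14 was listed for neither cell type.

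Among the ZIC genes, Zic2 stood at 5.72, 2.06 and 4.39 CPM in mESCs, above its CPCC levels of 0.298, 1.46 and 1.49 CPM. Zic2 fell (log2 fold change -1.91, SE 0.70, adjusted p = 0.0400), a call that was lost when S01, S03, S04, S05 or S06 was left out, with the highest adjusted p of 0.141 without S01. For Zic5 the log2 fold change was -1.64 (adjusted p = 0.0554), which passed with DESeq2 (adjusted p = 0.0341), without S06 and with missing genes filled in. Zic4, the neighbour of Zic1, had 4, 57 and 90 counts in S04, S05 and S06 in CPCCs, where alone it was listed. Its mean was at least 13.1-fold above mESCs, but its 0.398 CPM in S04 lay below the 0.448 CPM of the bound.

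Of the POU3F genes, Pou3f3 followed Pou3f2 and rose from 0.761 ± 0.863 to 17.4 ± 5.64 CPM (log2 fold change 4.51, adjusted p = 0.000738). Pou3f4 was listed for CPCCs only and at least 31.2-fold higher. Pou3f1, an early factor of the switch from pluripotency to neural fate, had a mESC range of 5.74 to 9.73 CPM and a CPCC range of 9.94 to 17.1 CPM (log2 fold change 0.79, adjusted p = 0.0681), and passed when at least 10 counts were required in every sample (0.86, adjusted p = 0.0415).

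Of the 8 other PAX genes, 5 were listed for CPCCs only and 3, Pax1, Pax4 and Pax7, for neither cell type. Pax3, a factor of the dorsal neural tube, neural crest and muscle progenitors, had 17.1, 25.1 and 54.3 CPM in S04, S05 and S06 and was at least 71.8-fold higher. Pax2, a midbrain and kidney factor, had 2.09, 5.58 and 7.11 CPM. Both followed the order S04, S05, S06. Pax5, Pax8 and Pax9 had means of 0.393, 0.429 and 0.760 CPM.

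Other fatty acid binding protein genes went different ways. Fabp3, the heart and muscle form, fell from 109 ± 7.25 to 8.65 ± 2.04 CPM (log2 fold change -3.65, SE 0.22, adjusted p = 3.66e-06). Fabp5, the epidermal form, which neural progenitors also make, rose by a log2 fold change of 0.99 (SE 0.16, adjusted p = 0.000747), with 96.3, 115 and 110 CPM over the CPCCs. Pmp2, a myelin form, was listed for CPCCs only at 2.47 ± 0.633 CPM, and Fabp1, Fabp2, Fabp4, Fabp6 and Fabp9 for neither cell type.

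Among the relatives of Dcx, Dclk1, a kinase with doublecortin domains, was listed for CPCCs only, at 106, 146 and 138 CPM, at least 290-fold higher than in mESCs. Dclk3 fell (log2 fold change -3.02, SE 0.63, adjusted p = 0.00267) and Dclk2 did not pass (-0.42, adjusted p = 0.305). Map2 and the axonal microtubule protein gene Mapt moved in opposite directions. Mapt levels were 127, 141 and 125 CPM in mESCs but 6.66, 15.9 and 10.9 CPM in CPCCs, a log2 fold change of -3.56 (SE 0.30, adjusted p = 1.80e-05). Map4, the form found in most tissues, had a log2 fold change of 0.15 (adjusted p = 0.360).

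St8sia2, an enzyme that adds polysialic acid to NCAM1, rose beside its substrate, from 2.94, 2.65 and 0.878 CPM in mESCs to 83.8, 168 and 126 CPM in CPCCs. Its log2 fold change was 5.87 (SE 0.43, adjusted p = 8.60e-06). St8sia4, the second such enzyme, was listed for CPCCs only at 2.22 ± 0.497 CPM, and Ncam2 for neither cell type.

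**Figure D3:**
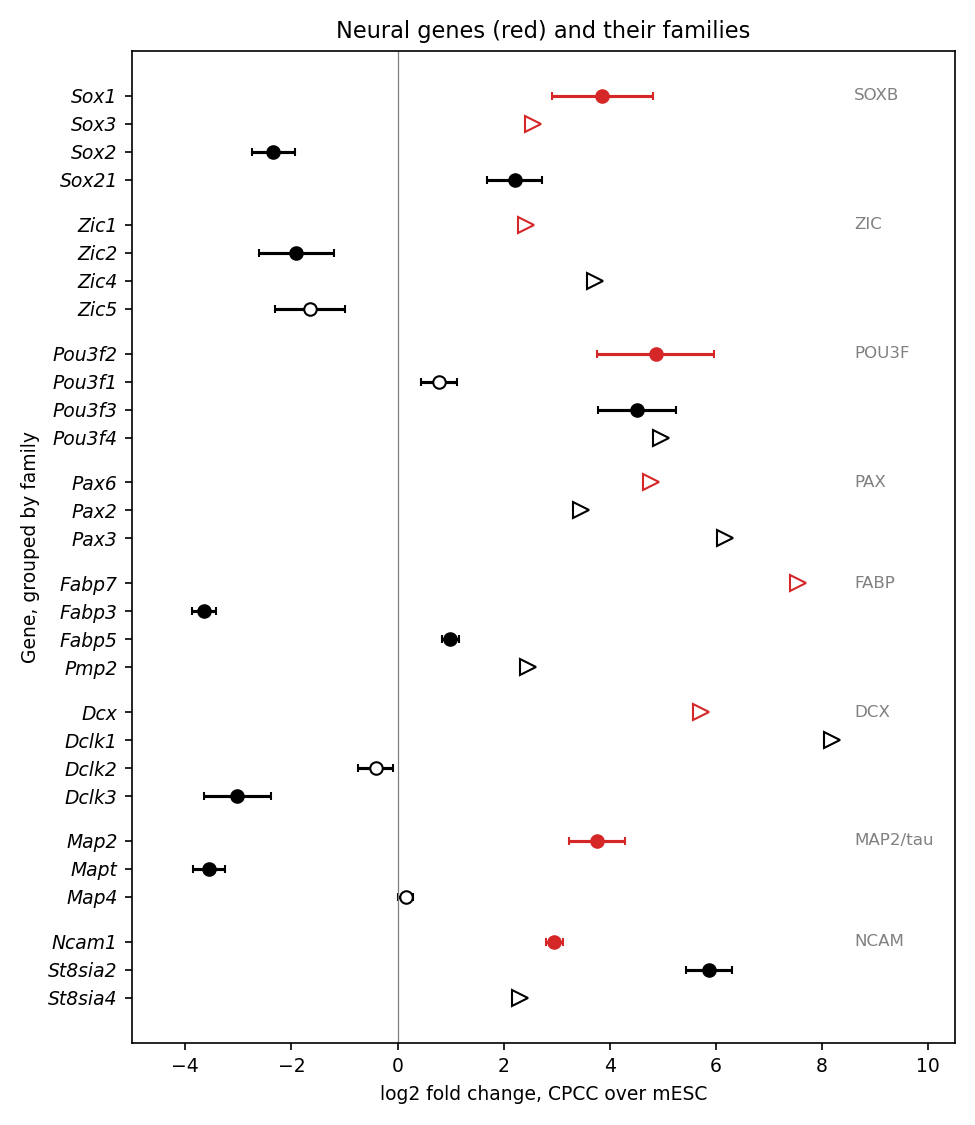
Log2 fold changes of CPCCs over mESCs are drawn with their standard errors for the 9 genes (red) and relatives of theirs (black), grouped by family. Filled circles passed the edgeR test, open circles did not, and open triangles are lower bounds for genes not listed for mESCs. Sox2, Zic2, Fabp3, Dclk3 and Mapt lie to the left of 0, opposite to Sox1, Zic1, Fabp7, Dcx and Map2, and Pax5, Pax8 and Pax9 are left out for their low counts.

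Lists of functionally related genes placed the 9 in a wider frame. Over all genes tested, 31.7% rose and 29.7% fell, and 16.2% of the CPCC table was listed for CPCCs only. Counts near these shares say little about a list. Medians are over the tested genes of a list unless bounds are named. Of 34 neural transcription factors, 18 could be tested, and 8 rose, 3 fell and 7 did not pass, with a median log2 fold change of 0.71. A further 11 were listed for CPCCs only, 2, Rax and Hesx1, for mESCs only and 3 for neither. With bounds for genes listed for 1 cell type, the median was 1.31 over 31 genes. Irx3, a factor of neural tube patterning, rose by a log2 fold change of 3.49. Sox2, Zic2 and Olig2, a factor of motor neuron and oligodendrocyte progenitors, were those that fell, the last by 1.81 on the log2 scale in a call lost when S01, S02, S04, S05 or S06 was left out. Six3, of the anterior forebrain, was at least 45.4-fold higher in CPCCs and En1, of the midbrain and hindbrain border, at least 28.7-fold. Without S01, 5 of this list rose.

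Proneural and Notch pathway genes were mostly too low to test in mESCs. Of 26 such genes 6 were tested, of which 2 rose, 1 fell and 3 did not pass (median log2 fold change 1.19), 12 were listed for CPCCs only and 7 for neither cell type. Neurod1, a neuronal differentiation factor, rose by a log2 fold change of 3.31 (adjusted p = 0.00357), with 10.7, 6.43 and 3.90 CPM in S04, S05 and S06, the reverse of the order of Sox1. Hes6, an inhibitor of the Notch target HES1, rose by 2.36 and had the order of Sox1, at 26.5, 59.7 and 71.1 CPM. Insm1, a factor of dividing neuronal precursors, had 1, 51 and 154 counts. Ebf2 and Ebf3 were at least 19.4-fold and 15.1-fold higher, and Pou4f1, of sensory neurons, fell by 2.38 on the log2 scale, a call lost without S02, S03, S04 or S05. The proneural genes Neurog1 and Neurog2 were listed for neither cell type.

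Most genes of neuronal structure were listed for both cell types. Of 39, 33 were tested, and 18 rose, 3 fell and 12 did not pass (median log2 fold change 1.61). Kif1a, an axonal transport motor, rose by a log2 fold change of 6.43, Gap43, a growth cone protein, by 6.29 and Dpysl3, of axon guidance signalling, by 5.28. Gap43 had 91.9, 105 and 119 CPM in S04, S05 and S06, and Kif1a had 195, 149 and 126 CPM. The neurofilament gene Nefh fell by 3.84 on the log2 scale, and Mapt and Elavl2 fell too. The relatives of Dpysl3 and Dcx, Crmp1 and Dclk1, were at least 129-fold and 290-fold higher, and the endosomal protein gene Nsg1 at least 52.1-fold.

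Adhesion and synapse genes rose in 10 of 14 tested, with 1 lower and 3 not past the threshold (median log2 fold change 2.14), and 15 more of the 33 were listed for CPCCs only. After St8sia2, the largest rises were those of Gad2, an enzyme of GABA synthesis (log2 fold change 4.43), and of Sv2a, a synaptic vesicle protein (3.51). Gad1, the other GABA-making enzyme, fell by 1.65 on the log2 scale, a call lost without S03. Cplx2 and Syt1, of the release machinery, were at least 50.6-fold and 29.3-fold higher. Of the vesicular transporters of glutamate and GABA, Slc17a6 was listed for CPCCs only and Slc17a7 and Slc32a1 for neither cell type.

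Of 22 radial glia and glia genes 13 were tested, of which 5 rose, 3 fell and 5 did not pass, with a median log2 fold change of 1.35. With bounds for genes listed for CPCCs only, the median was 3.01 over 19 genes. Nes and Vim, intermediate filaments that neural progenitors share with mesenchymal and muscle precursors, rose by log2 fold changes of 4.63 and 4.89, and the proteoglycan gene Cspg4 by 5.76. Tnc, a matrix protein of radial glia and of many mesenchymal cells, was at least 3059-fold higher, at 1291, 1590 and 1229 CPM. Ptprz1 and Gpm6a, membrane proteins of neural progenitors and neurons, were at least 79.7-fold and 25.9-fold higher. The oligodendrocyte genes Olig1 and Mbp and the astrocyte gene Aldh1l1 were the 3 that fell, and Gfap and S100b, of mature astrocytes, were listed for neither cell type. The falls of Olig1 and Aldh1l1 were each lost in 4 of the 6 fits with 1 library left out, and without S04 the rises numbered 8.

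Neural crest genes were divided, with 2 of 8 tested genes higher, 4 lower and 2 not past the threshold (median log2 fold change -1.16), while 8 of the 19 were listed for CPCCs only. With bounds for these 8, the median was 1.87 over 16 genes, of the opposite sign. Snai2, which promotes cell migration, rose by a log2 fold change of 4.51 and Msx2 by 2.10, and both were highest in S04. Ngfr, Foxd3 and Mitf fell by 3.36, 3.35 and 3.17 on the log2 scale. Ets1, Pax3 and Ednrb were at least 143-fold, 71.8-fold and 55.8-fold higher.

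REST, its partners and other regulators of neural differentiation went both ways. Their functions are not all alike, so the counts do not describe repressors alone. All 18 were tested, and 7 rose, 7 fell and 4 did not pass, with a median log2 fold change of -0.080. Rest, which silences neuronal genes in other cells, is named here after its values were seen. It fell from 200 ± 17.6 to 75.1 ± 4.20 CPM (log2 fold change -1.41, SE 0.16, edgeR, adjusted p = 8.14e-05). Rcor2, Hdac1 and Sin3a, which work with REST, fell by 2.27, 1.95 and 1.44 on the log2 scale. Id3 and Id1, inhibitors of proneural factors, rose by log2 fold changes of 4.60 and 3.35, and Ctdspl, a phosphatase that acts with REST, by 1.78.

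**Figure D4:**
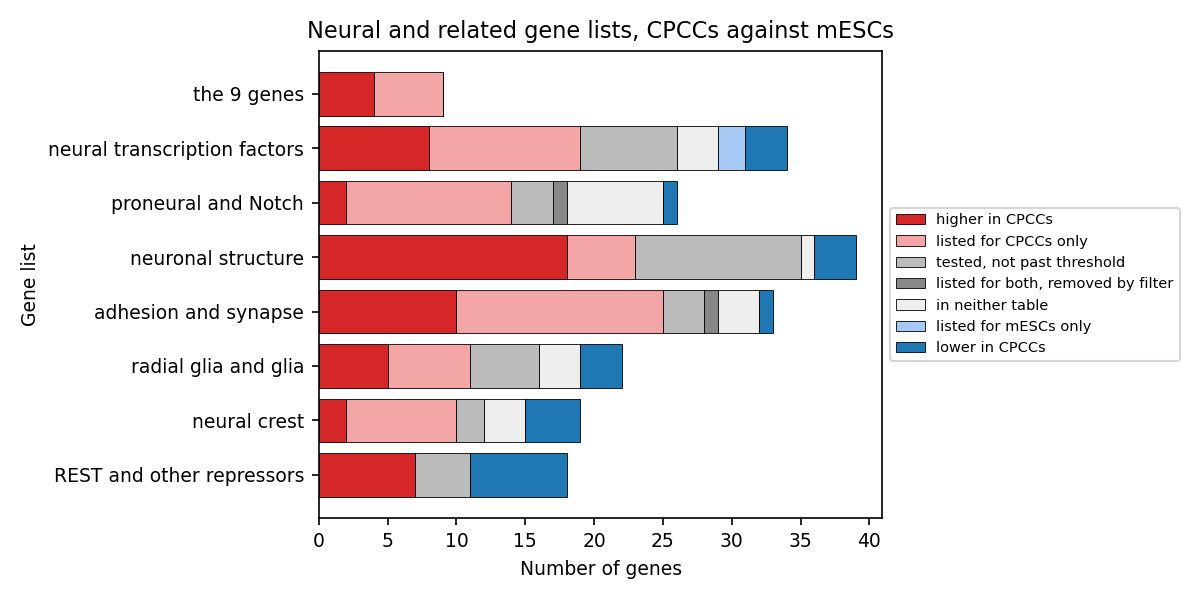
Bars count the genes of each list by outcome in the comparison of CPCCs with mESCs, from higher in CPCCs (red) to lower in CPCCs (blue), with genes listed for 1 cell type in pale shades. All 9 neural genes are in the red or pale red part, while the list labelled REST and other repressors holds 7 genes in red and 7 in blue.

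The genes whose pattern over the 6 libraries lay nearest to each tested gene were found by the root mean square difference of mean-centred log2 CPM. For Sox1 these were Trh, a neuropeptide precursor, at 0.435, Celsr2, a cadherin of planar polarity, at 0.504, and Nsg2, a neuronal endosomal protein, at 0.607. Trh counts were 3, 12 and 16 in mESCs, then 25, 199 and 268 in CPCCs. Pou3f2 was matched less closely, by Pou3f3 at 0.787, the protocadherin gene Pcdh17 at 0.815 and the myosin kinase gene Mylk at 0.821. Ncam1 had close neighbours in Rsph3b at 0.0469, the ion transporter gene Clcn4 at 0.0975 and the semaphorin receptor gene Plxnb2 at 0.104. Those of Map2 were Chst15 at 0.239, Megf6 at 0.251 and Greb1 at 0.271. With 6 libraries in 2 cell types, likeness of this kind is a description.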

How the data were processed

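Bulk RNA-seq was measured in 3 mESC and 3 CPCC libraries made from polyA cDNA with the SMART-Seq v4 kit and sequenced in pairs. The authors deposited estimated counts per gene in 1 table per cell type, neither normalized nor split by allele. The submitters' processing notes name STAR 2.7 and mm10, and the counter and its use of strand are not given in the sources used here. Each table lists genes with at least 10 counts over its 3 libraries. Library totals of 6442639 to 11436062 set the precision, and a library's level of 3 counts lay between 0.298 and 0.463 CPM.

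Here the counts were rounded, and the 13001 genes in both tables were filtered with filterByExpr, leaving 12471. The test was edgeR 4.0.16 (R 4.3.3), quasi-likelihood with TMM, Benjamini-Hochberg adjusted p under 0.05. Bounds use 3 counts per library. Exon lengths came from GENCODE vM21. Alternatives were DESeq2 1.42.0, other scalings and filters, missing genes filled with 0 or 3 counts, and leaving out each library. On simulated counts for 13001 genes, edgeR found 26 of 75 genes changed 2-fold, 51 of 65 changed 4-fold and 57 of 60 changed 8-fold, and called 11 unchanged genes.

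The members and the gene lists were chosen with earlier results of these data known. The genes named are the 9, their families, the marker genes given as checks, up to 3 rises, 3 falls and 3 bounds per list by size among groups that do not overlap, and the 3 nearest patterns per tested gene. A few genes that this rule would name are not reported here.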

Additional observations from a re-analysis of the deposited data

How the results depend on the processing

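All 4 tested members kept their call and direction in every fit that tested them, with DESeq2, with other scalings and without each library. At least 10 counts in every sample left 1 of them, Ncam1, and filling missing genes with 0 or 3 counts gave 8 higher members in each case. The filled mESC counts were set and not measured, so these added calls are no evidence beyond the bounds. No member was lower in any fit. Over all genes 7656 passed, and 6536 to 7895 passed with 1 library left out. Depth limits Sox3, Zic1 and the mESC levels of Pou3f2, Sox1 and Map2, which rest on few counts. No paired analysis was possible because the columns carry no replicate numbers.

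With at least 10 counts in every sample, the genes higher and lower numbered 4 and 1 for neural transcription factors and 1 and 2 for neural crest genes, none of the proneural genes was lower (0), and 4 adhesion and synapse genes were higher. Filling missing genes with 0 or 3 counts gave, in both cases, 5 lower neural transcription factors, 6 higher proneural genes, 18 higher adhesion and synapse genes and 8 higher neural crest genes, with 10 and 9 higher radial glia and glia genes. Without a filter 2 adhesion and synapse genes were lower. By construction, filling missing genes tested more genes and the minimum of 10 counts fewer. With 1 library left out, neural transcription factors ranged from 5 to 9 higher and 1 to 3 lower, proneural genes from 0 to 1 lower, adhesion and synapse genes from 0 to 2 lower, and radial glia and glia genes from 5 to 8 higher and 1 to 4 lower. Of 65 named genes, 9 lost or gained a call under some setting, and 847 of 881 fits left call and sign as they were. The cause of these changes was not tested.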
